A study of Mus musculus with 12 samples.

Results

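The PPAR, ERR and PGC-1 regulators are 10 genes for transcription factors and coactivators that set how a heart muscle cell burns fuel: the fatty-acid receptors Ppara, Ppard and Pparg, their partners Rxra and Rxrg, the orphan receptors Esrra, Esrrb and Esrrg, and the coactivators Ppargc1a and Ppargc1b. They were taken by name from the deposited gene table, and all 10 were found among its 18050 genes. The tissue was the left ventricle of wild-type mice, taken 7 days after MI, read here as myocardial infarction, or after a sham operation, and mRNA from it was sequenced as 6 libraries per group, numbered 1 to 6. The submitters' processing notes differ between replicates 1 and 2 and replicates 3 to 6, so each set was also compared on its own. The labels give neither strain, age nor sex, and leave unsaid whether each library is its own animal. The p-values therefore measure the spread between libraries alone, and that spread may be technical.

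PPARs are nuclear receptors activated by fatty acids. They bind DNA as pairs with an RXR, and PPAR alpha is known in heart for driving genes that import and oxidise fatty acids. The ERRs are related receptors without a known natural hormone that drive genes of the respiratory chain and the tricarboxylic acid cycle. PGC-1 alpha and beta bind no DNA themselves but dock on PPARs, ERRs and other factors and raise their output, which makes the network a known master control of mitochondrial content in heart.

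Expected counts, the read numbers estimated per gene, summed to 18546662 and 18602226 in MI replicates 1 and 2 and to 15541334 and 16066681 in sham replicates 1 and 2. MI replicates 3 to 6 held 14168412 to 14410783, and sham replicates 3 to 6 held 9140353 to 9750764. Each member was counted at least 77 times in every library. Libraries of replicates 3 to 6 lay much closer together than those of replicates 1 and 2, with a biological coefficient of variation of 0.0208 in MI and 0.0293 in sham, against 0.192 in MI and 0.112 in sham for replicates 1 and 2. A gene was therefore called only when it passed, in the same direction, a test over 12 libraries and a test that counted replicates 3 to 6 once per group (edgeR, adjusted p under 0.05). Levels are CPM, counts scaled to library totals and TMM factors, unless TPM is named. Summed markers of heart muscle were between 6580 and 34100 CPM in MI libraries and between 105000 and 111000 CPM in sham libraries. Fibroblast markers summed to 27700 to 73800 CPM in MI and 3020 to 3660 CPM in sham libraries. Most of the MI sum was collagen, from Col1a1, Col1a2 and Col3a1, with 12-library log2 fold changes of 5.37, 4.76 and 4.68. Of the 8 markers 7 rose, Pdgfra by only 0.74, and Dcn (0.47) was not called. Dcn averaged 2120 CPM in MI and 1900 CPM in sham for replicates 3 to 6. The fibroblast sum is therefore no measure of cell number. Endothelial markers summed to 655 to 1120 CPM in MI and 948 to 1220 CPM in sham libraries. Lung epithelium markers summed to between 201 and 205 CPM in MI replicates 3 to 6 and to at most 28.2 CPM elsewhere, and the part of these cells in any result was not tested.

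Promoter windows that hold a motif match are shown for 3 members that fell steeply after MI, each with the motif matched in capitals. They come from RefSeq on build GRCm38.p6 and run from 250 bases before the transcript start to 50 bases after it, on the plus strand. They are Ppara at chr15:85735526-85735825 with an NRF1 element, the first window of Esrrg at chr1:187608756-187609055 with a MEF2 motif, and the second window of Rxrg at chr1:167618015-167618314 with the receptor core motif (AGGTCA).
Ppara: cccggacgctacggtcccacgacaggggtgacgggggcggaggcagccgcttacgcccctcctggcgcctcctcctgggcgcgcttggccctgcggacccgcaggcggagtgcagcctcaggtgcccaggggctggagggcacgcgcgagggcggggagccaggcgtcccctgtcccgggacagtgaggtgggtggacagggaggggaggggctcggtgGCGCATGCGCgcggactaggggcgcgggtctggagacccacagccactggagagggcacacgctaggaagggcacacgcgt
Esrrg: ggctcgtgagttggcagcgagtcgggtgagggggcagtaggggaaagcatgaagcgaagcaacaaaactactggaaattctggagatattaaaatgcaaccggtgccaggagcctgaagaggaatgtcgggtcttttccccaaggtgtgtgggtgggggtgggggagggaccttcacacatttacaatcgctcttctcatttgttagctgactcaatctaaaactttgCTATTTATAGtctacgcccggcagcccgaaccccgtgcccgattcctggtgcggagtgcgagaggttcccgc
Rxrg: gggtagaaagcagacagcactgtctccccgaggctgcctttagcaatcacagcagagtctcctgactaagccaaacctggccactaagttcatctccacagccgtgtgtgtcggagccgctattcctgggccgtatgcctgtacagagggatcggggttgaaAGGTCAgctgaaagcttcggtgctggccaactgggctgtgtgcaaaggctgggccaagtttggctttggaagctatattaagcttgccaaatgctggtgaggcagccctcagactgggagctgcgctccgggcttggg

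Windows were found for 9 of the 10 members, 17 in all, and motifs were searched on both strands. The NRF1 element, bound by a factor that PGC-1 alpha coactivates, lay 31 bases before the Ppara start and in 0.971% of all 32851 windows. The MEF2 motif, bound by muscle factors known to switch on Ppargc1a, lay 22 bases before the Esrrg start and in 1.86% of all windows. The core motif AGGTCA was found in 4 of the 17 windows, those of Pparg, Rxra and Rxrg, and in 16.3% of all windows. The ERR element TNAAGGTCA, which contains that core motif, was in 1.28% of all windows and in none of the members' windows. The PPAR-RXR element, AGGTCA repeated after 1 free base, was in 0.0396% and the cyclic AMP element TGACGTCA in 1.79% of all windows, and neither was in a window of a member. Esrra, Esrrb and Ppargc1a, which also fell steeply, had no match to any of these motifs in their windows. A match is a description of letters only.

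The question put to these genes was whether the fuel regulators change in the left ventricle 7 days after MI. Of the 10 members 9 fell and 0 rose, while 29.8% of 13592 genes tested were called lower and 28.1% higher. Pparg was the member not called. In replicates 3 to 6 alone all 10 were called lower, against 39.5% of genes called lower and 42.2% higher there. In replicates 1 and 2 alone 9 were called lower, against 32.9% of genes lower and 34.1% higher. The median log2 fold change of the members was -2.07 over 12 libraries, against 0.01 for all genes tested. When libraries were scaled by size alone the median of all genes became 0.424, with 6264 genes called higher and 2477 lower in place of 3823 and 4055, and Ppard and Rxra then lost their call by both tests. Within replicates 1 and 2 that scaling still called both lower, and within replicates 3 to 6 it called 7 members lower, without Ppard, Rxra and Ppargc1b. Both calls were also lost with TMM scaling and no set covariate. Tissue RNA was measured, so fewer cells of a type and less RNA per cell cannot be told apart.

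**Figure D1:**
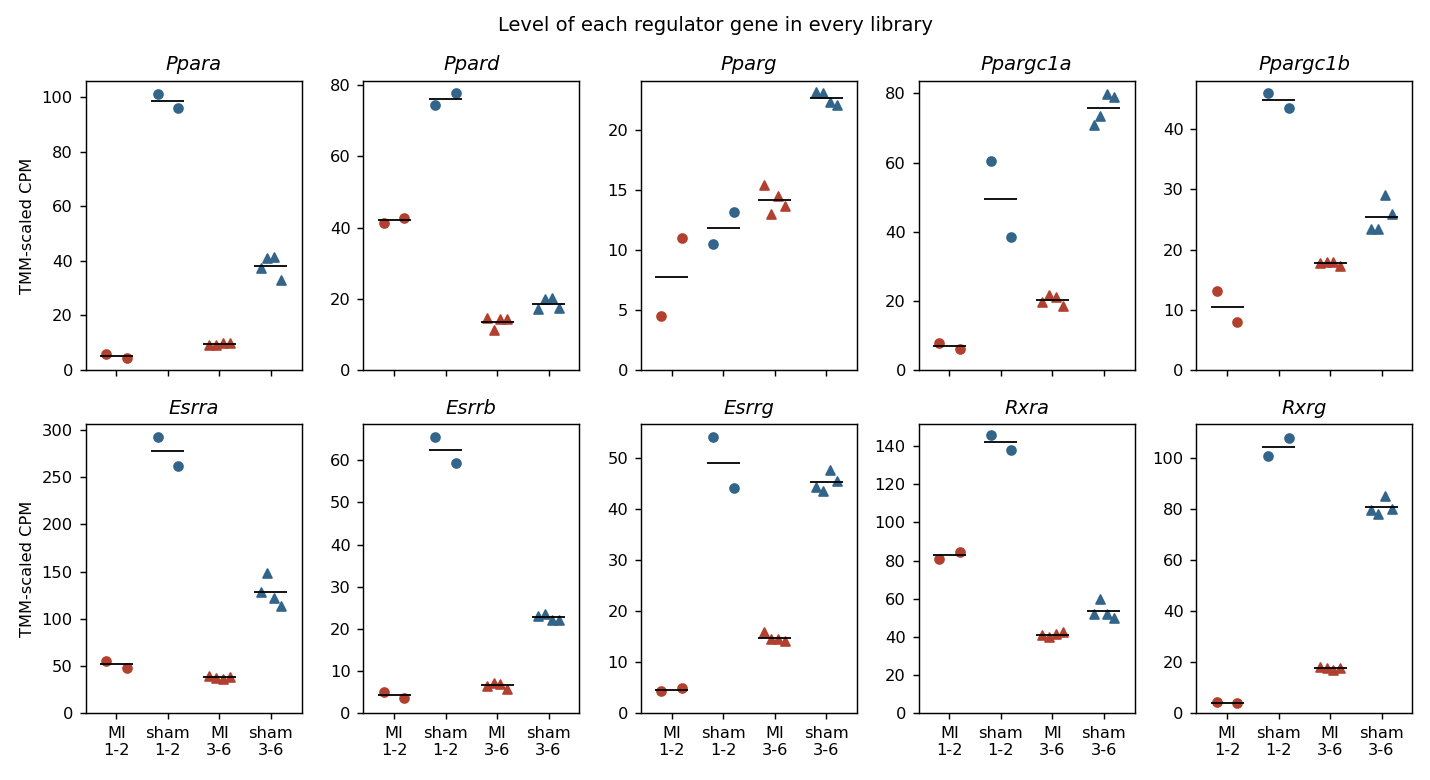
TMM-scaled CPM of each of the 10 genes (y axis, linear, from 0) in every library, with MI in red and sham in blue, circles for replicates 1 and 2, triangles for replicates 3 to 6 and bars for means. For 7 genes no MI library reached any sham library; Ppard, Pparg and Rxra overlapped once the sets were joined.

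Groups did not overlap over 12 libraries for 7 members, all with MI lower, where 21.3% of 13654 genes had all MI libraries lower and 21.2% all MI libraries higher. On TMM-scaled CPM all 10 members were without overlap within replicates 3 to 6, and all but Pparg within replicates 1 and 2. In deposited TPM Ppard, Pparg and Ppargc1b overlapped within replicates 3 to 6, where Rxra was higher in MI. Within replicates 1 and 2 Pparg and Rxra overlapped in TPM. The share of all genes without overlap within a set was not counted, so the within-set counts do not set the members apart.

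Among the PPARs, Ppara fell most. Ppara (gene ID 19013; GRCm38 chromosome 15, 85734910 to 85806851, plus strand), the receptor that drives cardiac fatty acid oxidation, had 5.87 and 4.53 CPM in MI replicates 1 and 2, against 101 and 96.1 CPM in sham replicates 1 and 2. Across replicates 3 to 6 the values were 9.26, 9.15, 9.98 and 10 CPM in MI, against 37.3, 41.0, 41.3 and 33.1 CPM in sham. Every MI library was below every sham library, and the sham libraries of replicates 1 and 2 stood far above those of replicates 3 to 6. Its log2 fold change was -4.26 (SE 0.16, adjusted p = 3.81e-05) in replicates 1 and 2, a level 19.2-fold lower, and -1.94 (SE 0.08, adjusted p = 2.7e-19) in replicates 3 to 6, 3.84-fold lower. Of all genes tested, 0.81% had a lower value than Ppara in replicates 1 and 2, and 3.23% in replicates 3 to 6. These levels rest on 98 to 166 expected counts in MI libraries and 275 to 1328 in sham libraries.

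Ppard (gene ID 19015; chromosome 17, 28232754 to 28301469, plus strand), the most widely expressed PPAR, fell far less, and by library size alone it was called lower in replicates 1 and 2 only. It had 41.4 and 42.8 CPM in MI replicates 1 and 2, against 74.5 and 77.8 CPM in sham, with a log2 fold change of -0.87 (SE 0.11). Across replicates 3 to 6 the values were 14.6, 11.3, 14.2 and 14.3 CPM in MI, against 17.0, 20.0, 20.1 and 17.3 CPM in sham, with -0.40 (SE 0.09). The sets differed more than the groups, as mean Ppard was 3.09 times as high in MI replicates 1 and 2 as in MI replicates 3 to 6, and 4.1 times as high among sham libraries. In deposited TPM the MI libraries of replicates 3 to 6 spanned 7.0 to 9.07 and the sham libraries 6.71 to 7.97, so that scale gave no fall there, and library-size scaling gave a log2 fold change of -0.0565. For replicates 1 and 2 TPM was 29.7 to 31.8 in MI and 34.7 to 35 in sham, without overlap, and library-size scaling gave -0.416, called lower.

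Pparg (gene ID 19016; chromosome 6, 115360879 to 115490404, plus strand), the master regulator of fat cells that macrophages also use, was not called. It had 4.48 and 11 CPM in MI replicates 1 and 2, against 10.5 and 13.1 CPM in sham, an overlap between the groups. Across replicates 3 to 6 the values were 15.4, 13, 14.5 and 13.6 CPM in MI, against 23.1, 23.0, 22.3 and 22.0 CPM in sham, all MI libraries lower. The log2 fold change was -0.63 in each set, with an SE of 0.42 (adjusted p = 0.227) in replicates 1 and 2 and of 0.07 (adjusted p = 5.5e-09) in replicates 3 to 6. Over 12 libraries its adjusted p was 0.00302, and with replicates 3 to 6 counted once it was 0.143. Without MI replicate 2, the higher library of its pair, it was called, at -0.806. In deposited TPM the replicates 3 to 6 overlapped, at 14.1 to 16.5 in MI and 15.5 to 15.85 in sham. Fat cell markers, 10 listed, summed to 23.6 to 40.7 CPM in MI libraries and 98.4 to 218 CPM in sham libraries, with Plin1 at 0 in MI replicates 3 to 6. Most of that sum was Plin4, a lipid droplet protein also made in muscle, at 25.5 and 38.6 CPM in MI and 194 and 102 CPM in sham for replicates 1 and 2 and replicates 3 to 6. Cfd, adipsin, averaged 3.31 CPM in MI and 3.36 CPM in sham in replicates 1 and 2, and 0.197 CPM in MI and 1.9 CPM in sham in replicates 3 to 6. Adipoq, adiponectin, averaged 0.061 CPM in MI and 0.597 CPM in sham in replicates 3 to 6, and 0.875 CPM in MI and 2.19 CPM in sham in replicates 1 and 2. Of 10 macrophage markers 9 rose, and their sum was 3770 to 6230 CPM in MI libraries, against 720 to 1300 CPM in sham libraries, and the part of either cell type in the Pparg level was not tested.

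The RXR partners split. Rxrg (gene ID 20183; chromosome 1, 167598362 to 167639623, plus strand), the RXR of striated muscle and brain, fell most of all 10 members. It had 4.29 and 4.07 CPM in MI replicates 1 and 2, against 101 and 108 CPM in sham, from 89.07 and 88.05 expected counts in MI and 1333.11 and 1459.27 in sham. Replicates 3 to 6 had 18.2, 17.7, 17.0 and 17.8 CPM in MI, against 79.6, 78.2, 85.0 and 80.2 CPM in sham. No MI library came near a sham library. Its level was 25.4-fold lower in MI replicates 1 and 2 (log2 fold change -4.67, SE 0.13, adjusted p = 3.81e-05) and 4.42-fold lower in MI replicates 3 to 6 (-2.14, SE 0.05, adjusted p = 7.75e-25). In those sets 0.462% and 2.36% of genes had a lower value than Rxrg.

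Rxra (gene ID 20181; chromosome 2, 27676445 to 27763319, plus strand), the widely expressed partner, had 80.9 and 84.7 CPM in MI replicates 1 and 2, against 146 and 138 CPM in sham. Replicates 3 to 6 had 40.9, 39.8, 41.4 and 42.5 CPM in MI, against 51.9, 59.9, 51.9 and 50 CPM in sham. Its log2 fold changes of -0.80 (SE 0.11) and -0.33 (SE 0.05) were the smallest of the 10 in replicates 3 to 6 and among the smallest in replicates 1 and 2. In replicates 3 to 6 the direction turned with the scale, as deposited TPM was 16.6 to 17.6 in MI and 13.4 to 16.1 in sham, and library-size scaling gave a log2 fold change of 0.0162. Within replicates 1 and 2 library-size scaling gave -0.34, called lower, and TPM overlapped, at 37.6 to 41.4 in MI and 40.8 to 45.4 in sham. Rxrb, the RXR that is no member, had log2 fold changes of -0.68 (replicates 1 and 2) and -0.57 (replicates 3 to 6) with TMM scaling, while its deposited TPM overlapped between MI and sham in both sets.

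**Figure D2:**
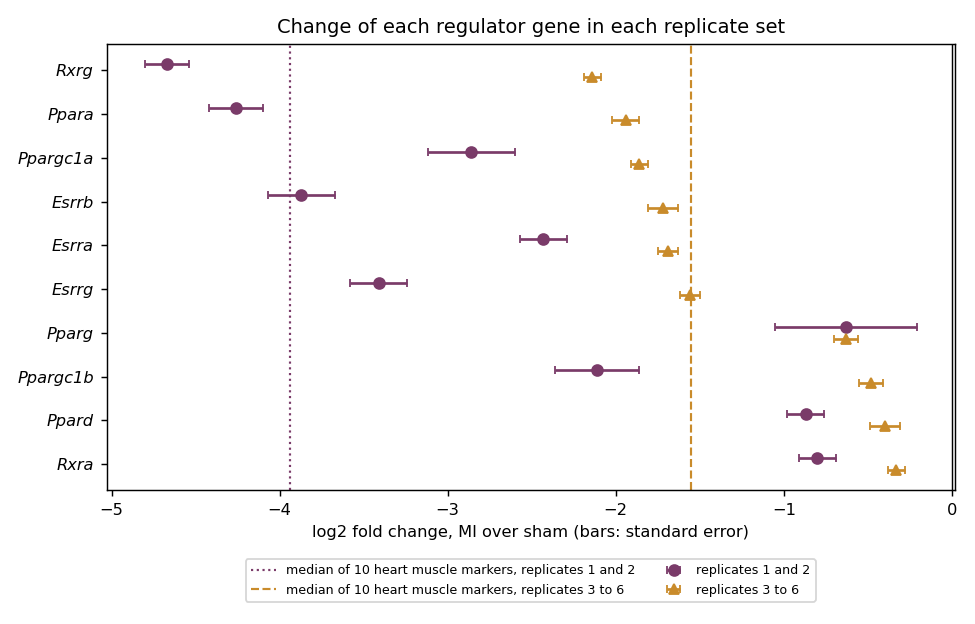
Log2 fold change of MI over sham (x axis) for each gene, fitted in replicates 1 and 2 (circles) and in replicates 3 to 6 (triangles), with standard errors, and with vertical lines at the median of 10 heart muscle markers in each set (-3.94 and -1.55). Rxrg lies lowest in both sets, at -4.67 and -2.14, and Rxra and Ppard lie nearest 0 in replicates 3 to 6, at -0.33 and -0.40.

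All 3 ERR genes fell. Esrra (gene ID 26379; chromosome 19, 6910977 to 6922048, minus strand), the ERR that with PGC-1 alpha drives respiratory chain genes, had 55.8 and 48.3 CPM in MI replicates 1 and 2, against 293 and 262 CPM in sham. Replicates 3 to 6 had 40.1, 37.1, 36.9 and 38.9 CPM in MI, against 128, 149, 122 and 114 CPM in sham. Its level was 5.4-fold lower in MI replicates 1 and 2 and 3.24-fold lower in MI replicates 3 to 6, without overlap. Exons of Trmt112 on the opposite strand and of Mir6990 cover 3.74% of the Esrra exon bases, and no exon of another gene touched the exons of the other 9 members.

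Esrrb (gene ID 26380; chromosome 12, 86361117 to 86521628, plus strand), best known from pluripotent cells, placenta and inner ear, had 5.1 and 3.56 CPM in MI replicates 1 and 2, against 65.4 and 59.4 CPM in sham. The values in replicates 3 to 6 were 6.53, 7.32, 7.06 and 5.7 CPM in MI, against 23.2, 23.6, 22.1 and 22.1 CPM in sham. Levels were 14.6-fold and 3.3-fold lower in MI in those sets. Per length, its sham level in replicates 1 and 2, 21.1 to 23.3 TPM, was above that of Esrrg there, 11.6 to 14.8 TPM, whereas in sham replicates 3 to 6 Esrrg was above it, at 10.6 to 11.4 TPM against 6.77 to 7.64 TPM.

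Esrrg (gene ID 26381; chromosome 1, 187608510 to 188214885, plus strand), the ERR tied to the switch of the newborn heart to oxidative metabolism, had 4.36 and 4.95 CPM in MI replicates 1 and 2, against 54.0 and 44.0 CPM in sham. The values in replicates 3 to 6 were 15.9, 14.6, 14.6 and 14.2 CPM in MI, against 44.3, 43.5, 47.5 and 45.5 CPM in sham. Its sham level was close in both sets, with means of 49.0 and 45.2 CPM, while its MI level was 3.19 times as high in replicates 3 to 6 as in replicates 1 and 2. The log2 fold changes were -3.41 (SE 0.17, adjusted p = 4.76e-05) in replicates 1 and 2 and -1.56 (SE 0.06, adjusted p = 1.22e-19) in replicates 3 to 6.

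Both PGC-1 genes fell, Ppargc1a by more. Ppargc1a (gene ID 19017; chromosome 5, 51454249 to 52115853, minus strand), the inducible coactivator of mitochondrial biogenesis, had 7.7 and 6.1 CPM in MI replicates 1 and 2, against 60.5 and 38.5 CPM in sham. The values in replicates 3 to 6 were 19.6, 21.6, 21.2 and 18.6 CPM in MI, against 70.8, 73.6, 79.9 and 79.1 CPM in sham. The level was 7.25-fold lower in MI replicates 1 and 2 and 3.62-fold lower in MI replicates 3 to 6, and the highest MI library stayed below the lowest sham library. Unlike Ppara and Esrra, its sham mean was lower in replicates 1 and 2, at 49.5 ± 15.6 CPM (SD, n = 2), than in replicates 3 to 6, at 75.9 ± 4.35 CPM (SD, n = 4).

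Ppargc1b (gene ID 170826), the related coactivator held to sustain basal mitochondrial function, had 13.1 and 7.93 CPM in MI replicates 1 and 2, against 46.1 and 43.5 CPM in sham. The values in replicates 3 to 6 were 17.7, 17.9, 18 and 17.2 CPM in MI, against 23.5, 23.4, 29.1 and 26.0 CPM in sham. On the log2 scale the change was -2.11 (SE 0.25, adjusted p = 0.000679) in replicates 1 and 2 and -0.48 (SE 0.07, adjusted p = 4.93e-07) in replicates 3 to 6. With library-size scaling the second value was -0.134 and not called, and deposited TPM overlapped there, at 3.28 to 3.44 in MI and 2.85 to 3.45 in sham. Its call by both tests was lost without sham replicate 1 (-0.949) or without MI replicate 1 (-0.934).

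By the fitted interaction the fall was larger in replicates 1 and 2 than in replicates 3 to 6 for 9 members, and for Pparg the difference was -0.07. The difference passed both tests for 4 members, Rxrg, Ppara, Esrrb and Esrrg, against 10.5% of genes tested. Their log2 fold changes were 2.46 (SE 0.10), 2.26 (SE 0.15), 2.08 (SE 0.18) and 1.78 (SE 0.14) less negative in replicates 3 to 6, with adjusted p of 0.011 for Rxrg, 0.0154 for Ppara, 0.0239 for Esrrb and 0.0235 for Esrrg with replicates 3 to 6 counted once. For Ppargc1b (1.57), Ppargc1a (0.94), Esrra (0.67), Ppard (0.41) and Rxra (0.40) the difference passed only the 12-library test. With replicates 3 to 6 counted once, this test takes its spread from the library pairs of replicates 1 and 2 alone. Without either sham library of that set the calls were lost, and without MI replicate 1 more members passed. Each such fit rests on the other group's pair alone, so it cannot show on which library the difference depends. The folds moved little when a sham library was left out, as Ppara in replicates 1 and 2 was at -4.24 without sham replicate 1 and -4.31 without sham replicate 2, and Rxrg at -4.73 and -4.63. The summed heart muscle markers differed between the sets too, being 12.7-fold lower in MI replicates 1 and 2 and 3.13-fold lower in MI replicates 3 to 6, and their part in the difference was not tested.

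Shares within a family do not depend on library scaling. Rxrg made up 5.89% ± 0.0915 of the RXR TPM in MI replicates 1 and 2, against 49.1% ± 0.79 in sham (SD, n = 2 each), counting Rxrb with the family. In replicates 3 to 6 it made up 34.9% ± 0.424 in MI, against 62.9% ± 2.16 in sham (SD, n = 4 each). Ppara made up 4.04% ± 1.31 of the PPAR TPM in MI replicates 1 and 2, against 31.1% ± 1.63 in sham, and 10% ± 0.719 in MI replicates 3 to 6, against 22.4% ± 1.38 in sham. The ranges of these shares did not overlap between MI and sham within a set.

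Of the summed TPM of Ppargc1a and Ppargc1b, with Pprc1 not counted, Ppargc1a held 51.8% ± 4.87 in MI replicates 1 and 2, against 63.7% ± 6.37 in sham, and 64.9% ± 1.31 in MI replicates 3 to 6, against 83.0% ± 0.766 in sham. The ERR family kept its order in replicates 3 to 6, where Esrra held 79.8% ± 1.07 of the ERR TPM in MI and 80.4% ± 1.63 in sham, overlapping ranges. In replicates 1 and 2 the Esrra share was higher in MI, at 92.5% ± 0.0896, against 83.8% ± 0.0551 in sham. The remaining PPAR share lay mainly with Ppard in replicates 1 and 2, at 74.4% in MI and 54.7% in sham, and with Pparg in replicates 3 to 6, at 57.9% in MI and 52.8% in sham.

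**Figure D3:**
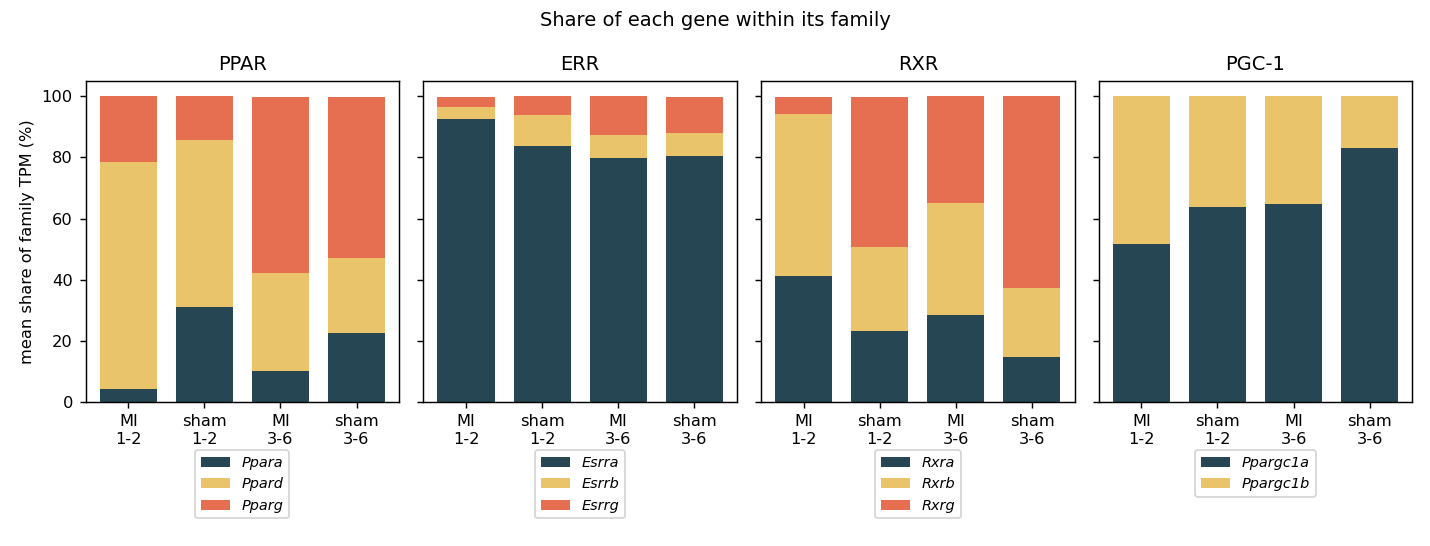
Mean share of each gene in the summed TPM of its family (y axis, percent) for MI and sham in each replicate set, stacked to 100, with Rxrb added to the RXR family and Pprc1 not counted in the PGC-1 family. Rxrg and Ppara take a smaller share in MI than in sham in both sets, and Esrra holds 79.8% or more of the ERR sum throughout.

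Per length, Esrra was the most abundant member in both groups and both sets, at 55.7 and 35.7 TPM in MI and 184 and 75 TPM in sham for replicates 1 and 2 and replicates 3 to 6. In sham libraries Rxrg came next, at 91.2 and 61.1 TPM, without overlap with its neighbours in the order. In MI replicates 1 and 2 Rxra came next at 39.5 TPM and Rxrg, at 5.68 TPM, stood below Rxra and Ppard and overlapped Pparg. In MI replicates 3 to 6 Rxrg stayed next, at 21.2 TPM. Ppara was the lowest member in MI in both sets, at 1.64 and 2.62 TPM, with a range that overlapped that of its neighbour Esrrg in replicates 1 and 2. Ppargc1b was the lowest in sham, at 6.18 and 3.08 TPM.

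Set against the heart muscle markers of the same library, the members differed. The 10 markers, among them Mb, myoglobin, and Myl2, the ventricular light chain, had a median log2 fold change of -3.94 in replicates 1 and 2, against -1.55 for replicates 3 to 6, and 9 of 10 fell. Per 10000 CPM of summed markers, Rxrg stood at 5.07 in MI and 9.45 in sham in replicates 1 and 2, and at 5.22 in MI and 7.63 in sham in replicates 3 to 6. Ppara stood at 6.15 in MI and 8.89 in sham in replicates 1 and 2, and at 2.84 in MI and 3.61 in sham in replicates 3 to 6. Both genes remained lower in MI on this summed scale, without overlap, but not against every single marker. Mb (-4.58 and -1.98) and Tnni3 (-4.62 and -1.99) fell more than Ppara (-4.26 and -1.94) in both sets. Myl2 (-4.31 and -2.04) and Myl3 (-4.92 and -2.06) did too. Myh6 (-3.94 and -1.29), Pln (-3.94 and -1.71) and Actc1 (-3.03 and -0.78) fell less. So did Ryr2 (-2.74 and -1.15), Tnnt2 (-2.65 and -1.39) and Ttn (-1.26 and -0.08), the rest of the list. In replicates 1 and 2 Myl3 also fell more than Rxrg (-4.67).

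The ERR genes lay close to the markers in replicates 3 to 6, but in replicates 1 and 2 Esrra was 2.49 times as high per marker in MI, at 62.4, against 25 in sham. In the larger set Esrra stood at 10.9 to 12 per 10000 in MI and 10.7 to 14.2 in sham. Esrrb stood at 1.67 to 2.16 in MI and 2.07 to 2.26 in sham, and Esrrg at 4.18 to 4.75 in MI and 4.16 to 4.44 in sham, so the ranges overlapped for each, as they also did for Esrrb and Esrrg in replicates 1 and 2. Ppargc1a was lower in MI replicates 3 to 6 by this measure, at 5.98 against 7.17 in sham, and higher in MI replicates 1 and 2, at 8.18 against 4.46 in sham. Ppard, Pparg, Ppargc1b and Rxra were higher per marker in MI in both sets, by 2.98 to 9.75 times in replicates 1 and 2 and 1.96 to 2.41 times in replicates 3 to 6. Which cells hold each transcript was not measured.

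**Figure D4:**
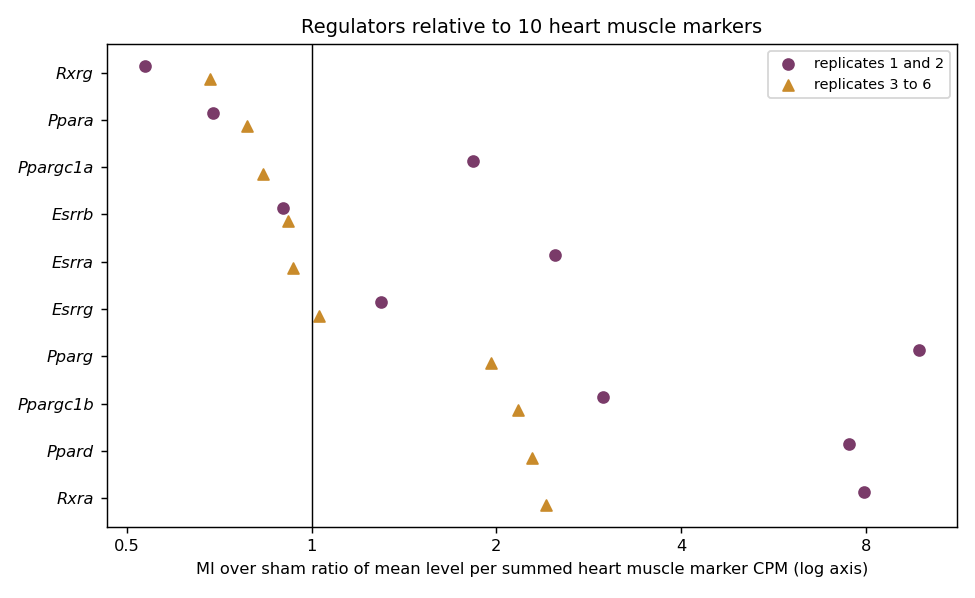
Ratio of MI to sham (x axis, log scale) of each gene's mean level per summed CPM of 10 heart muscle markers, in replicates 1 and 2 (circles) and replicates 3 to 6 (triangles). Rxrg and Ppara lie below 1 in both sets, the ERR genes lie near 1 in replicates 3 to 6, and Pparg, Ppargc1b, Ppard and Rxra lie above 1.

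Most of the target genes listed here for these receptors were lower too. Of 24 ERR target genes 24 fell and 0 rose, where 29.8% of all genes were called lower and 28.1% higher. Their median log2 fold change was -2.19 over 12 libraries. They included Got1 (-2.70, SE 0.22), an aspartate aminotransferase, Uqcrfs1 (-2.55, SE 0.22) of respiratory complex III and Slc25a3 (-2.09, SE 0.19), the mitochondrial phosphate carrier. Of 27 PPAR target genes tested 23 fell and 2 rose, against the same shares of all genes, with a median of -2.29. Mlycd, malonyl-CoA decarboxylase, which relieves the block on fatty acid entry into mitochondria, averaged 23.2 and 25.9 CPM in MI, against 183 and 114 CPM in sham, for replicates 1 and 2 and replicates 3 to 6. Ucp3, a mitochondrial carrier of muscle, had the lowest value of the 27, at -4.87 (SE 0.23), and Slc27a1, a fatty acid transporter, was at -1.37. The list medians were near that of the 10 heart muscle markers, -2.30 over 12 libraries, and the lists' part beyond muscle transcripts was not tested.

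The PPAR targets that rose were Plin2, a lipid droplet coat, and Angptl4, a secreted inhibitor of lipoprotein lipase. Plin2 averaged 177 ± 78.6 CPM in MI replicates 1 and 2, against 89.5 ± 17.5 CPM in sham, and 161 ± 2.67 CPM in MI replicates 3 to 6, against 86.6 ± 5.81 CPM in sham. Angptl4 had a log2 fold change of 1.61, with 20.0 and 24.9 CPM in MI against 8.27 and 7.17 CPM in sham in the same order of sets. Acot1 (-1.52), an acyl-CoA thioesterase, was not called, and Fgf21 was too low to test.

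Of 18 coregulators 7 fell, 1 rose and 10 were not called, with a median log2 fold change of -0.18, where 29.8% of all genes were called lower and 28.1% higher. The count of 7 lower is near that share. Pprc1, the related coactivator PRC and the only PGC-1 family gene that is no member, rose, at 0.79 (SE 0.08). It averaged 43.3 CPM in MI and 25.8 CPM in sham in replicates 1 and 2, and 17.6 CPM in MI and 10 CPM in sham in replicates 3 to 6. Perm1, a muscle-specific partner of PGC-1 and ERR, fell, by 4.21 on the log2 scale in replicates 1 and 2 but by 1.36 for replicates 3 to 6. Lpin1, which amplifies the PGC-1 alpha and PPAR alpha pathway in liver, fell by 3.58 in the first set and fell by 1.71 in the other. Prdm16 (-1.32, SE 0.14), a PGC-1 partner in brown fat, and Ncoa2 (-0.59, SE 0.06), a steroid receptor coactivator, also fell. The counts of this and the other lists rest on TMM scaling, and listed genes were not followed under library-size scaling. Ppard, with a fall as small as that of Ncoa2 (-0.6), lost its call there. The most abundant member not called was the corepressor Ncor1, at -0.13 (SE 0.05). Perm1, Lpin1, Angptl4, Acot1, Fgf21, Prkaa1, Nrf1 and Gabpb1 were picked after their values were seen.

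Among 12 factors through which PGC-1 raises mitochondrial gene expression, 7 fell, 2 rose and 3 were not called, where 29.8% of all genes fell and 28.1% rose. Tfb2m (-1.67, SE 0.06) and Tfam (-1.02, SE 0.09), which start and package mitochondrial transcription, fell, as did the helicase gene Twnk (-1.37, SE 0.13). The nuclear factors Nrf1 (0.43) and Gabpb1 (0.36) rose. Yy1 was not called, at -0.13 (SE 0.04).

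Of 13 upstream activators 7 fell, 3 rose and 3 were not called, against 29.8% of all genes lower and 28.1% higher. The catalytic subunits of AMP kinase, an energy sensor that acts on PGC-1 alpha, moved apart. Prkaa2, the muscle form, averaged 18.3 and 45.6 CPM in MI, against 126 and 116 CPM in sham, while Prkaa1 averaged 33.0 and 38.1 CPM in MI, against 20.3 and 30.5 CPM in sham, for replicates 1 and 2 and replicates 3 to 6. Prkag1, a regulatory subunit, fell (-1.24, SE 0.06) and Camk4, a calcium-dependent kinase, rose (3.01, SE 0.28), at levels of at most 9.11 CPM on average in MI. Ppp3ca, calcineurin A alpha, was not called (-0.12, SE 0.09).

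Of 9 genes listed as RXR partners 4 fell, 3 rose and 2 were not called, counts near the shares of all genes, 29.8% lower and 28.1% higher. Rxrb, itself an RXR, was counted among the 9 and among the 4 that fell. Vdr, the vitamin D receptor, rose. Its mean was 8.78 CPM in MI and 0.979 CPM in sham in replicates 1 and 2, and 2.85 CPM in MI and 0.391 CPM in sham in replicates 3 to 6, for a value of 3.0 on the log2 scale (SE 0.18). Rarb, a retinoic acid receptor, fell, at -1.16 (SE 0.10), as did Rxrb with TMM scaling, at -0.63 (SE 0.06). Nr1h2, liver X receptor beta, was the most abundant one not called, at -0.18 (SE 0.06).

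**Figure D5:**
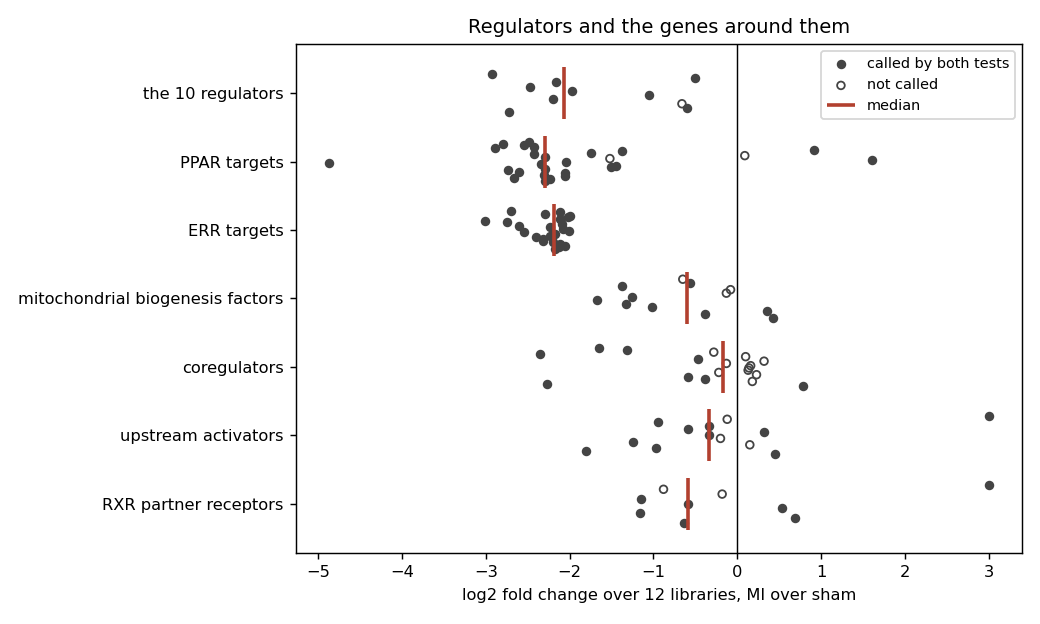
Log2 fold change of MI over sham over 12 libraries (x axis) for the 10 regulators and for each gene of 6 lists around them (rows). Filled points were called by both tests, open points were not, and red bars are medians, which were -2.07 for the regulators, -2.29 for PPAR targets and -2.19 for ERR targets.

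Profiles over the 12 libraries were compared with all genes outside the 10 by Pearson's r of log2 CPM, a description in which libraries of a set and group lie together. Closest to Rxrg was Hjv, hemojuvelin, which striated muscle and liver express, at r = 0.9993, with log2 fold changes of -4.43 and -2.02 in the sets. Closest to Esrrg was Tarsl2, a threonyl-tRNA synthetase gene, at 0.999, closest to Ppara was Kmt5a, a histone methyltransferase, at 0.9975, and closest to Esrrb was Eef1a2, the elongation factor of muscle and neurons, at 0.9973. Pparg had the least close neighbour, Gtf2h2, at 0.9848.

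A separate deposited table gave FPKM for replicates 1 and 2. Rxrg was at 2.81 and 2.65 FPKM in MI and 50.01 and 52.72 FPKM in sham there, 18.8 times as high in sham, the same ratio as in the FPKM of the main table. Ppargc1b differed most between the tables, at 4.74 and 4.01 FPKM in sham in the separate table and 3.71 and 3.47 FPKM in the main one.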

How the data were processed

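Expected counts, TPM and FPKM were taken as deposited by the authors in 1 table of 12 libraries. The file headers name these read counts, TPM and FPKM, and the name expected counts is used here for the read counts of all libraries. TPM is read here as transcripts scaled to a fixed total, and FPKM as fragments per length and depth. Another table, deposited for replicates 1 and 2, gives FPKM only. Per the submitters' processing notes, which give no roles, Bowtie2, RSEM and DESeq2 belong to replicates 3 to 6, and the build is GRCm38. Tools for replicates 1 and 2 and strandedness are not given in the sources used here.

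The expected counts, rounded to whole numbers, went into edgeR 4.0.16 in R 4.3.3 (quasi-likelihood F test, TMM, filterByExpr, replicate set as covariate, Benjamini-Hochberg adjustment over all genes tested). The 425 genes blank in replicates 1 and 2 stayed out of fits over both sets. Standard errors are the fold change over the root of F. The tests were run on simulated data first. Alternatives used DESeq2 1.42.0, limma 3.58.1 on log2(FPKM + pseudocount of 1, 0.1 or 0.01), other scalings, filters and thresholds, and dropped libraries in turn. Same-numbered libraries did not deviate together, with correlations from -0.0479 to 0.064.

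Members, lists and tests were chosen with earlier results of these data known. Named beside the members are, per list, the 3 called genes with the smallest adjusted p and the most abundant exception, the 2 most abundant markers and the genes closest in profile. Only those a result turns on are printed. Named outside this rule are Adipoq, Plin1, Col1a2, Pdgfra, Dcn and every heart muscle marker but Mb and Myl2. So are the genes said above to be picked after their values were seen.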

Additional observations from a re-analysis of the deposited data

Results flagged for a closer look

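The fall in MI differed between the replicate sets for Ppara, Esrrb, Esrrg and Rxrg. The log2 fold change in replicates 3 to 6 minus that in replicates 1 and 2 was 2.26 for Ppara, 2.08 for Esrrb, 1.78 for Esrrg and 2.46 for Rxrg, by the interaction of set and group in edgeR. The calls were lost without sham replicate 1 or without sham replicate 2. The test counting replicates 3 to 6 once then takes its spread from the MI pair alone. Those fits cannot show that the difference depends on a sham library. The folds in replicates 1 and 2 stayed similar, for Ppara at -4.24 and -4.31 and for Esrrb at -3.81 and -3.95. Esrrg was at -3.27 and -3.56, and Rxrg at -4.73 and -4.63.

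Of 40 groups of libraries looked at for a library standing apart, 2 held one, and chance gives about 1 in 20. Ppard was at 11.3 CPM in MI replicate 4, below the other MI libraries of replicates 3 to 6. Esrrg was at 54.0 CPM in sham replicate 1, above the other sham libraries.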

How the results depend on the processing

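Of the 10 members, Ppara, Ppargc1a, Esrra, Esrrb, Esrrg and Rxrg kept their direction and call in all 24 alternatives run. Over all genes 3823 were called higher and 4055 lower. Library-size scaling gave 6264 higher and 2477 lower. Limma on log2 FPKM gave 6383 and 2586 with a pseudocount of 1, 6476 and 2609 with 0.1, and 6423 and 2588 with 0.01. No set covariate gave 2305 and 2216, and an adjusted p under 0.01 gave 2186 higher. The cause of these shifts was not tested. Leaving out 1 library gave 2241 to 3912 genes higher and 2788 to 4072 lower, and 7 to 9 members lower, the 2241 and 2459 without sham replicates 1 and 2. Ppard and Rxra lost their call under library-size scaling (-0.188 and -0.104), limma and no set covariate, and Rxra also without MI replicate 1 (-0.449) or 2 (-0.462). Ppargc1b lost it at an adjusted p under 0.01 (-1.05), and Pparg gained one in the 12-library test alone (-0.656). The replicate block called 3150 genes higher, 3528 lower and 9 members lower. Differences between sets numbered 1430 genes and 4 members, and 1 to 2962 genes and 0 to 6 members when 1 library was left out, with 1 and 0 without either sham library of replicates 1 and 2, 2962 without MI replicate 1 and 2565 without MI replicate 2. Within replicates 3 to 6, library-size scaling, added after the data were seen, gave 3598 genes lower, against 5453. Counting error weighs most on Esrrb, Rxrg, Esrrg, Pparg and Ppara in MI replicates 1 and 2, whose lowest libraries held 77, 88, 91, 93 and 98 counts.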
